A study of Drosophila melanogaster with 8 samples.

Results

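The genes described here encode the subunits of the Drosophila proteasome. They were chosen by symbol alone, as every gene listed as Prosalpha, Prosbeta, Rpn or Rpt followed by a number, which gave 47 of the 17558 genes in the table. Of these, 32 are core subunits and 15 are paralogues, marked by a further R or T in the symbol. Poly(A)-enriched RNA was sequenced from ring glands of larvae at the wandering stage of the last instar, with males and females pooled and 80 glands in each library. There were 4 libraries labelled kdm5[140], a mutant allele of the histone demethylase gene Kdm5 that GEO's series title calls null, and 4 libraries labelled w[1118], the wild type (WT). Larvae were matched by stage and not by chronological age. The paper states that mutant larvae were collected later after egg laying than controls. Genotype and this difference in age cannot be told apart.

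The proteasome is the protease complex that degrades ubiquitylated proteins in the cytoplasm and nucleus. Its 20S core particle is a barrel of stacked alpha and beta rings, with the proteolytic sites inside, on the beta ring. The 19S regulatory particle caps the barrel. Its base holds the ATPases that unfold substrates, together with scaffold and ubiquitin-receptor subunits, and its lid holds the enzyme that removes ubiquitin. Several Drosophila subunits have paralogues that are expressed mainly in the testis. The ring gland contains the prothoracic gland, which makes ecdysone, and also the corpus cardiacum and the corpora allata.

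Libraries held 17131110 to 19494692 counts. Kdm5, listed by its older symbol lid, was higher and not lower in the libraries labelled kdm5[140], at 196 ± 3.19 CPM (counts scaled to library size), against 154 ± 13.3 CPM in WT (SD, n = 4 each, log2 fold change 0.35, adjusted p = 0.00437, edgeR). Counts per gene do not show where in the gene the reads lie, so the genotype is given throughout as the label states it. Prothoracic gland markers were abundant in every library. The summed level of 6 of them (phm, dib, sad, spok, nvd and Npc1a) was 36186 to 46520 CPM in the libraries labelled kdm5[140] and 48763 to 54000 CPM in WT. Transcripts of fat body (4 genes) summed to 945 to 3715 CPM and 614 to 1856 CPM in these groups, those of neurons (3 genes) to 140.5 to 186 CPM and 111 to 154 CPM, and those of muscle (3 genes) to 439.8 to 673 CPM and 333 to 538 CPM. Akh, which marks the corpus cardiacum, lay at 1401 to 1563 CPM in the libraries labelled kdm5[140] and 975 to 1454 CPM in WT, and jhamt, which marks the corpora allata, at 424 to 606 CPM and 554 to 601 CPM. In pooled tissue, fewer cells of a type and less RNA per cell cannot be told apart. The part that these differences play in the values below was not tested.

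CPM values were normalized with edgeR's trimmed mean of M-values (TMM). All 32 core subunits passed the filter on low counts, together with 2 paralogues, Rpt3R and Rpt6R. The other 13 paralogues did not. With edgeR's quasi-likelihood test and a Benjamini-Hochberg adjusted p (FDR) under 0.01, 6 of the 34 tested members were lower in the libraries labelled kdm5[140]. That is 17.6% of them, beside 9.62% of all 9317 tested genes called lower. None was higher, beside 7.91% of all tested genes. At an unadjusted p under 0.05, edgeR gave 21 lower and 0 higher members, beside 22.1% and 20.4% of all tested genes. At the FDR threshold, DESeq2 gave 13 lower and 0 higher of 36 tested, beside 11.5% of all its tested genes called lower. limma voom gave 6 lower and 0 higher of 34, beside 9.53% of all genes called lower. The lower members were Prosalpha1, Prosbeta1, Rpn2, Rpn9, Rpn11 and the paralogue Rpt6R.

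Among the 32 core subunits, 5 were lower at this threshold. The log2 fold change (kdm5[140] over WT) was negative for 30 core subunits and positive for 2, with a median of −0.20 and quartiles of −0.27 and −0.15. Over all tested genes the median was 0.02, and 47.5% of values were negative. Core subunits are well expressed, so they were also read against the 657 tested genes with a mean level inside the range of the core subunits other than Prosalpha1. Of those genes, 17.7% were called lower and 5.18% higher, the median was −0.10 and 65.6% of values were negative. These 657 genes include the 31 core subunits other than Prosalpha1. Of all 32 core subunits, 15.6% were called lower, and of the 31 without Prosalpha1, 12.9%. The share for those 31 was thus not above that of genes at the same level, while their median, −0.20, was farther below 0.

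**Figure D1:**
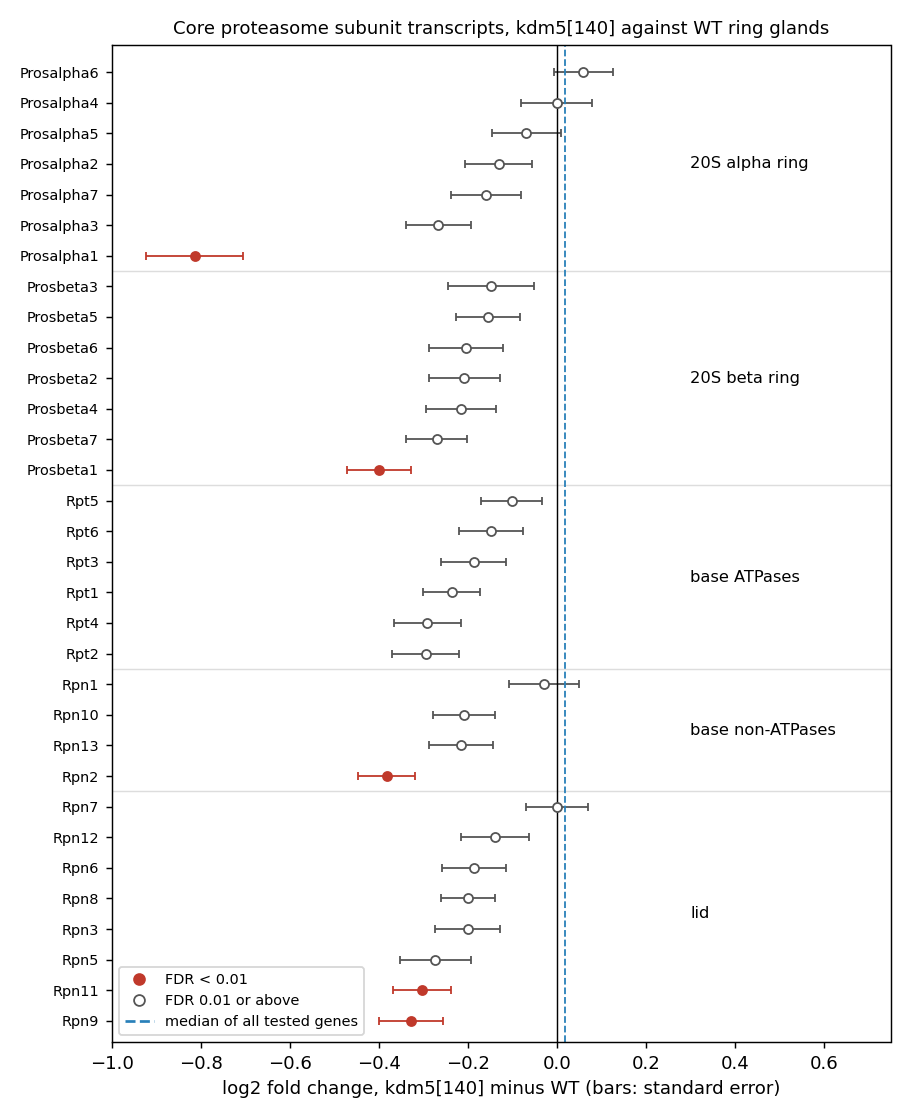
Log2 fold change of each of the 32 core subunits (kdm5[140] over WT, 4 libraries each), by sub-complex, with bars for the standard error. Filled points have an FDR under 0.01. 30 of 32 points lie below 0, and the dashed line marks the median of all tested genes, 0.02.

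Single libraries differed within a genotype. Summed over the 32 core genes, the level was 8842, 9004, 10439 and 8992 CPM in replicates 1 to 4 labelled kdm5[140], against 10429, 10702, 10907 and 10557 CPM in WT. These averaged 9319 ± 750.1 CPM and 10649 ± 205 CPM (SD, n = 4 each). Replicate 3 labelled kdm5[140] lay inside the WT range and apart from the other 3 of its genotype. It was the highest of the 4 for 32 of 32 core genes. The same library had the highest prothoracic gland marker sum of its genotype, 46520 CPM against 36186 to 37945 CPM in the other 3, and the highest level of jhamt, 606 CPM against 424 to 515 CPM. It had the lowest sums of its genotype for fat body, neuron and muscle transcripts, 945 CPM, 140.5 CPM and 439.8 CPM. Whether the marker levels bear on its core subunit levels was not tested.

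Levels in the libraries labelled kdm5[140] were all below those in WT for 13 of the 32 core genes, beside 17.6% of all tested genes and 29.2% of the 657 genes at the same level. With replicate 3 labelled kdm5[140] left out, this held for 29 of 32, beside 22.4% of all tested genes and 39.1% of those 657. That library was the highest of its genotype for all 32 core genes, which was not required of the genes in those shares. Leaving it out could not lower the core count, so 29 of 32 is not a like comparison with those shares. The test without that library called 15 members lower of 34, beside 9.42% of all genes tested in that fit. Without WT replicate 1, 8 members were lower, beside 957 of 9526 genes tested. Without each of the other 6 libraries in turn, 3 or 4 members were lower, beside 5.63% to 6.79% of all genes. Prosalpha1, Rpn2 and Rpt6R were called in all 8 of these fits.

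**Figure D2:**
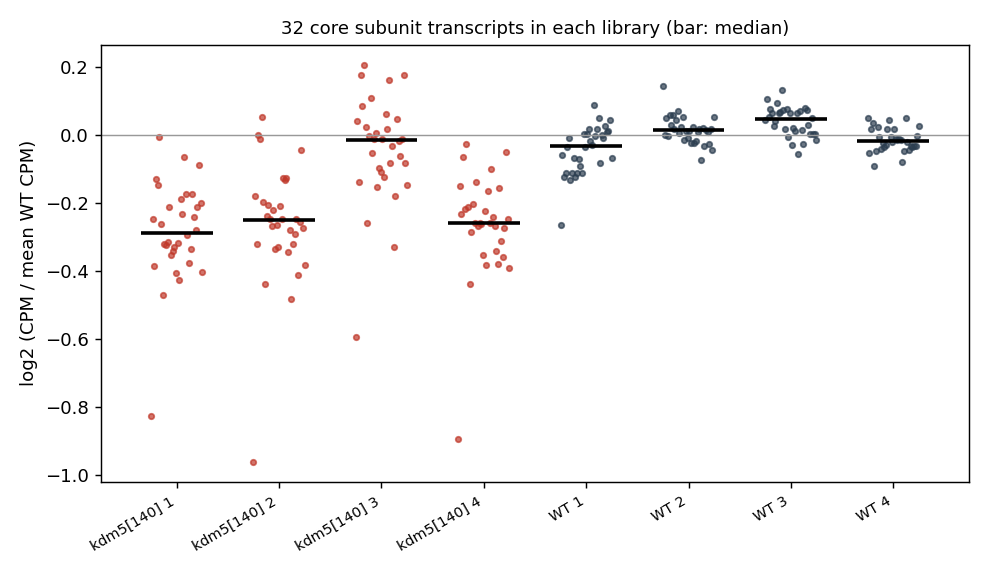
Each of the 32 core subunits in each library, as the log2 ratio of its CPM to its mean CPM in WT, with a bar at the median of each library. The points of replicate 3 labelled kdm5[140] lie higher than those of the other 3 libraries of its genotype, and the lowest point in each kdm5[140] library is Prosalpha1.

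In the 20S alpha ring, which gates the barrel, 1 of 7 genes was lower, beside 9.62% of all tested genes. The median log2 fold change was −0.13. With a gene length offset in the fit this median was −0.02, beside 0.02 for all tested genes, and with scaling by library size alone −0.04, beside 0.12. Prosalpha1 had 22.2, 20.3, 26.1 and 21.2 CPM in replicates 1 to 4 labelled kdm5[140], against 32.8, 43.6, 40.6 and 40.8 CPM in WT. The groups did not overlap. Its mean was 22.4 ± 2.57 CPM, against 39.5 ± 4.63 CPM in WT (SD, n = 4 each, log2 fold change −0.81 ± 0.11 SE, edgeR FDR = 0.000531). Prosalpha6 had the highest fold change of the ring, with 257, 268, 298 and 253 CPM in the libraries labelled kdm5[140] and 257, 264, 263 and 250.2 CPM in WT. Replicates 2 and 3 labelled kdm5[140] lay above every WT library, and the other 2 lay inside the WT range (log2 fold change 0.06 ± 0.07 SE, edgeR FDR = 0.53). The log2 fold change was 0.15 with scaling by library size alone and 0.14 with the length offset, and neither passed (edgeR FDR = 0.0396 and 0.0397). Prosalpha4 averaged 359.9 CPM in the libraries labelled kdm5[140] and 360.0 CPM in WT (log2 fold change 0.00 ± 0.08 SE, edgeR FDR = 0.997), and Prosalpha2, 3, 5 and 7 had log2 fold changes between −0.27 and −0.07.

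Prosalpha1 needs care in reading. It lies at 2R:7827303-7828678 (dm6, minus strand), and its paralogue Prosalpha1R, listed as CG30382 and so not taken by the symbol rule, begins 1734 bases away on the same strand. How reads that fit both genes were counted is not given in the sources used here. Prosalpha1R had 15.7, 12.4, 16.1 and 15.2 CPM in the libraries labelled kdm5[140], against 11.03, 11.3, 13.9 and 10.8 CPM in WT. Its fold change had the opposite sign to that of Prosalpha1 and did not pass the test (log2 fold change 0.34 ± 0.13 SE, edgeR FDR = 0.0702), and the groups overlapped. Prosalpha1R held 37.9% to 41.8% of the counts of the pair in the libraries labelled kdm5[140] and 20.5% to 25.5% in WT.

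With the counts of the pair summed, the log2 fold change was −0.46 and still passed (edgeR FDR = 0.00636). This is a value for both genes together, and how reads were assigned within the pair was not tested. The 2 genes also end within plus-strand neighbours, overlapping phr and CG18853 by 17 bases each. phr, a DNA photolyase gene, was itself lower, at 8.21 ± 0.304 CPM against 19.6 ± 1.52 CPM in WT (SD, n = 4 each, log2 fold change −1.26, edgeR FDR = 1.79e-05). CG18853 had 0.694 and 2.12 CPM on average (edgeR FDR = 0.0194). Whether strand was used in counting is not given in the sources used here, and the part of phr reads in the Prosalpha1 value was not tested.

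In the 20S beta ring, which carries the proteolytic sites, 1 of 7 genes was lower. Of all tested genes 9.62% were called lower, and of the 657 genes at the same level 17.7%. All 7 log2 fold changes in the ring were negative and the median was −0.21. The median was −0.10 with the length offset and −0.11 with library size alone. Prosbeta1, the subunit with the caspase-like site, had 263, 269, 304 and 268 CPM in the libraries labelled kdm5[140], against 336, 369, 388 and 362 CPM in WT. No library labelled kdm5[140] reached the WT range (log2 fold change −0.40 ± 0.07 SE, edgeR FDR = 0.00262). The subunits with the trypsin-like and chymotrypsin-like sites, Prosbeta2 and Prosbeta5, had log2 fold changes of −0.21 and −0.15 and did not pass. Prosbeta3 was the least changed of the ring. Its levels were 253, 275, 341 and 275 CPM in the libraries labelled kdm5[140] and 291, 333, 332 and 312 CPM in WT, and they overlapped through replicate 3 labelled kdm5[140] (log2 fold change −0.15 ± 0.10 SE, edgeR FDR = 0.271). With the length offset its log2 fold change was −0.04 (edgeR FDR = 0.645).

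Of the 6 base ATPases, which unfold and translocate the substrate, none was called by edgeR or by limma voom. At an unadjusted p under 0.05, edgeR gave 4 of the 6 lower, where 22.1% of all tested genes were. At the FDR threshold DESeq2 called 3 lower (Rpt1, Rpt2 and Rpt4), beside 11.5% of all its tested genes. Of the 657 genes at the same level, edgeR called 17.7% lower at that threshold. All 6 log2 fold changes were negative, with a median of −0.21. Rpt2 had the lowest, with 293, 309, 360.2 and 304 CPM in the libraries labelled kdm5[140], against 379, 386, 406 and 382 CPM in WT. Its groups did not overlap, but the FDR was above the threshold (log2 fold change −0.29 ± 0.07 SE, edgeR FDR = 0.0146). Rpt5 had the highest, with 266, 278, 316 and 271 CPM in the libraries labelled kdm5[140] and 299, 308, 305 and 300.0 CPM in WT, which overlap (log2 fold change −0.10 ± 0.07 SE, edgeR FDR = 0.284).

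The 4 other base subunits spanned a wider range. Rpn2, a scaffold of the base, had 481, 448, 497 and 493 CPM in the libraries labelled kdm5[140], against 647, 594, 613 and 647 CPM in WT. The highest of the libraries labelled kdm5[140] lay below the lowest WT library, replicate 3 labelled kdm5[140] included (log2 fold change −0.38 ± 0.06 SE, edgeR FDR = 0.00183). Rpn1, the other large scaffold, had 588, 564, 688 and 574 CPM in the libraries labelled kdm5[140] and 654, 608, 591 and 609 CPM in WT. Its groups overlapped (log2 fold change −0.03 ± 0.08 SE, edgeR FDR = 0.806), and its fold change was 0.07 on the log2 scale with scaling by library size alone (edgeR FDR = 0.384). The ubiquitin receptors Rpn10 and Rpn13 each had a log2 fold change of −0.21, with edgeR FDR values of 0.047 and 0.0454.

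In the lid, 2 of 8 genes were lower, beside 9.62% of all tested genes and 17.7% of the 657 genes at the same level. The median log2 fold change of the lid was −0.20. Rpn11, the deubiquitylating enzyme of the lid, had 216, 218, 240.2 and 209 CPM in the libraries labelled kdm5[140], against 257, 276, 288 and 268 CPM in WT. The groups did not overlap (log2 fold change −0.30 ± 0.07 SE, edgeR FDR = 0.00676). Rpn9, a structural lid subunit, had 200.2, 203, 239 and 202 CPM in the libraries labelled kdm5[140] and 253, 275, 262 and 269.9 CPM in WT. It was lower without overlap (log2 fold change −0.33 ± 0.07 SE, edgeR FDR = 0.00745). Rpn7, also a structural subunit, had 284, 293, 341 and 292 CPM in the libraries labelled kdm5[140] and 305, 306, 303 and 296 CPM in WT. Its fold change was 0.00 ± 0.07 SE on the log2 scale (edgeR FDR = 0.989), and only replicate 3 labelled kdm5[140] lay above WT. The 5 other lid genes had log2 fold changes between −0.27 and −0.14.

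**Figure D3:**
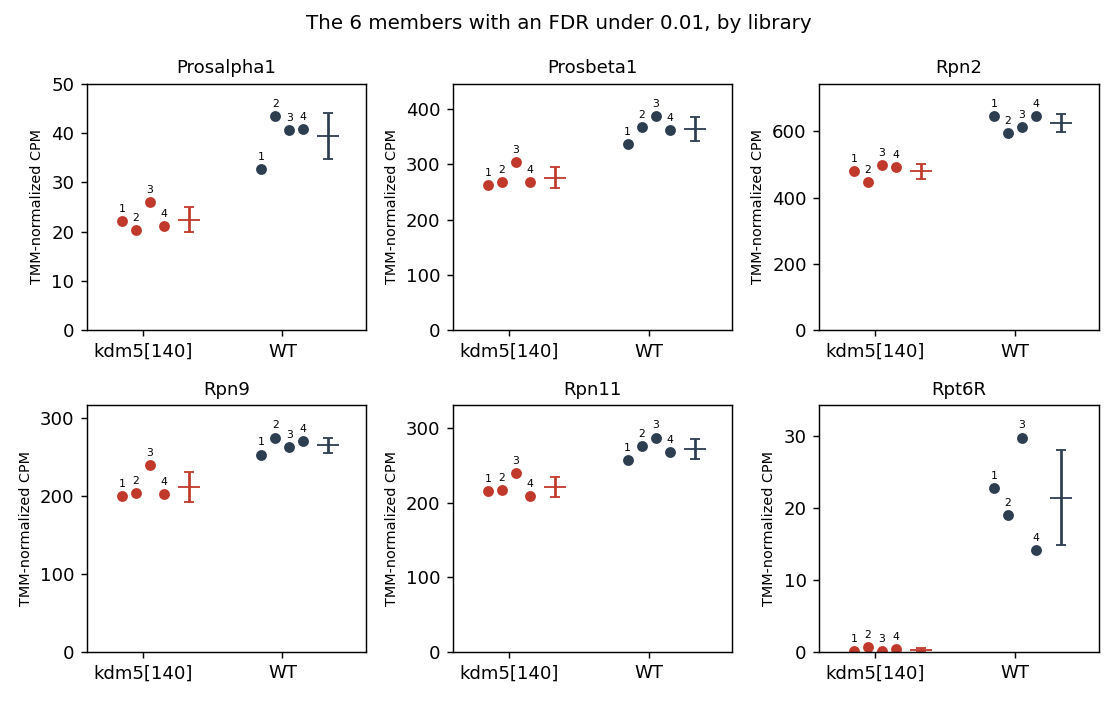
TMM-normalized CPM of the 6 members with an FDR under 0.01, by library (numbered points, kdm5[140] left and WT right), with the mean and SD of 4 libraries beside them. In all 6 panels every kdm5[140] point lies below every WT point, and Rpt6R is near 0 in kdm5[140].

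Some calls depended on which libraries entered the fit. Prosbeta1 was called in 3, Rpn11 in 2 and Rpn9 in 2 of the 8 fits that each left out 1 library. Prosalpha1, Prosbeta1 and Rpn9 are among 13 core genes with an exon that shares bases with an opposite-strand gene in the annotation, while Rpn2, Rpn11 and Rpt6R have no such overlap. At an FDR under 0.05, 14 of 32 core subunits were lower and none was higher, beside 16.5% and 14.4% of all tested genes. Of the 657 genes at the same level, 29.4% were lower and 10.2% higher at this threshold.

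Core genes could also be compared with each other per length (CPM divided by gene length in kb), without a test. Leaving out Prosalpha1, the median over 31 core genes was 215 CPM per kb in the libraries labelled kdm5[140] and 242 CPM per kb in WT. Levels spanned 126 to 332 CPM per kb and 158 to 427 CPM per kb. In each library, the highest core gene was only 2.58 to 2.92 times the lowest. Rpn9 was the lowest in all 8 libraries.

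The beta ring had the highest median level per length, 313 CPM per kb in the libraries labelled kdm5[140] and 347 CPM per kb in WT. The alpha ring followed with 266 and 289 CPM per kb in these groups, and the base ATPases with 208 and 246 CPM per kb. The lid had 174 and 199 CPM per kb, and the other base subunits 151 and 181 CPM per kb. The ranges of neighbouring sub-complexes overlapped, and the order was the same in both genotypes. Prosbeta1 was the highest gene per length in all 4 WT libraries and in replicate 1 labelled kdm5[140], and Prosbeta6 was the highest in the other 3. Prosalpha1 stood apart, with 23.2 CPM per kb in the libraries labelled kdm5[140] and 40.7 CPM per kb in WT. In WT the other alpha ring genes had 242 to 352 CPM per kb. How reads that fit both Prosalpha1 and Prosalpha1R were counted is not given, and their part in this level was not tested.

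**Figure D4:**
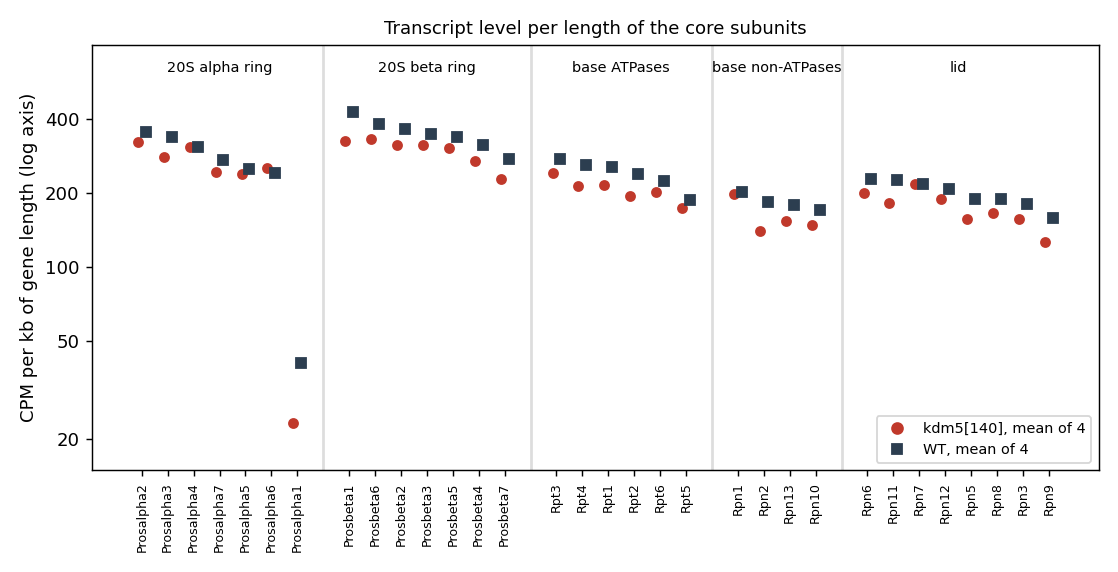
Mean level per length (CPM per kb of gene length, log axis) of each core subunit in the libraries labelled kdm5[140] (circles) and WT (squares), by sub-complex, ordered within each by the WT level. All genes but Prosalpha1 lie between 126 and 427 CPM per kb.

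Rpt6R, the paralogue of the base ATPase Rpt6, had the lowest fold change of any member. It had 3, 11, 1 and 7 counts in replicates 1 to 4 labelled kdm5[140], against 415, 320, 507 and 269 counts in WT. In CPM these were 0.292 ± 0.242 and 21.4 ± 6.60 (SD, n = 4 each). The groups were far apart, although WT libraries differed among themselves. The log2 fold change was −6.15 ± 0.48 SE (edgeR FDR = 3.83e-05), the 20th lowest of 9317 genes. Summed counts were 22 in the libraries labelled kdm5[140] and 1511 in WT, which after scaling by effective library size is a ratio of 71.9 (WT over kdm5[140], 95% exact interval 47.3 to 115.03, counting error only). Per length, Rpt6R reached 0.1% of the level of Rpt6 in the libraries labelled kdm5[140] and 6.63% in WT, while Rpt6 itself had a log2 fold change of −0.15 and did not pass.

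Rpt6R lies at 3R:30582198-30583697 (dm6, minus strand). The next gene on the same strand, CG9717, lies 322 bases away and was also lower, with 0.511, 0.993, 2.36 and 1.29 CPM in the libraries labelled kdm5[140], against 9.38, 5.36, 9.35 and 8.20 CPM in WT (log2 fold change −2.65 ± 0.42 SE, edgeR FDR = 0.00131). CG9702, 80 bases away on the other side, did not pass the filter. The next gene past each of these did not pass the test, with a log2 fold change of −0.11 for tmod (edgeR FDR = 0.236) and of −0.27 for CG2246 (edgeR FDR = 0.0141).

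Rpt3R, the paralogue of Rpt3 and the other one to pass the filter, had 1.53, 0.828, 0.846 and 1.74 CPM in the libraries labelled kdm5[140] and 1.70, 1.61, 3.35 and 1.31 CPM in WT. These overlapped, and it did not pass the test (log2 fold change −0.68 ± 0.41 SE, edgeR FDR = 0.238).

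The 13 paralogues under the filter were at or near 0 in most libraries. Fitted without the filter, 11 of them were tested by edgeR, and none was called at an FDR under 0.01. Prosbeta4R1 and Prosbeta5R2 had no count in any library, which for each library allows up to 3 counts. Summed over the 13, counts were 6, 9, 9 and 76 in replicates 1 to 4 labelled kdm5[140], against 2, 2, 2 and 13 in WT. Replicate 4 labelled kdm5[140] thus held most of them. It had 11 counts each of Prosalpha4T2 and Rpn12R, 10 of Prosalpha4T1, 8 of Prosbeta2R1 and 6 of Prosbeta4R2, while 5 of the 13 genes were detected in no other library.

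That library also stood apart for a list of Mst genes with a few testis genes. The list held 28 genes (the Mst genes other than Mst85C, with dj, djl, ocn, janB and fzo) and was chosen after values were seen. The Mst genes share a symbol and need not all be genes of late spermatogenesis. Summed counts of the 28 were 93, 75, 58 and 589 in replicates 1 to 4 labelled kdm5[140]. In WT they were 52, 49, 47 and 18. Mst85C was left out because it had 421 to 492 counts in every library. With it, the sums over 29 genes were 574, 496, 531 and 1073 in the libraries labelled kdm5[140] and 477, 541, 536 and 472 in WT. Replicate 4 labelled kdm5[140] was the highest library for 17 of the 28 genes without Mst85C, and 4 of the 28 had no count in any library. Germ-line genes (vas, nos, bam, twe and bgcn) did not single it out. Their summed counts were 95, 121, 108 and 88 in replicates 1 to 4 labelled kdm5[140] and 86, 102, 113 and 115 in WT. In replicate 4 labelled kdm5[140], 3 of these 5 genes had at most 3 counts, so the sum rests on few genes. The part of other tissue in these counts was not tested.

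A pair of paralogues followed other patterns. Prosbeta2R2 had 4, 5, 6 and 6 counts in the libraries labelled kdm5[140], against 0, 1, 1 and 0 in WT. Each library labelled kdm5[140] had more counts than any WT library, but at few counts, and it was too low for the edgeR filter. It did not pass at an FDR under 0.01 in edgeR without the filter (log2 fold change 3.03, FDR = 0.0722) or in DESeq2 (log2 fold change 3.32, adjusted p = 0.0494). Rpt4R had 0, 0, 3 and 14 counts in replicates 1 to 4 labelled kdm5[140] and 1, 0, 0 and 13 in WT, so its counts came nearly all from replicate 4 of each genotype.

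**Figure D5:**
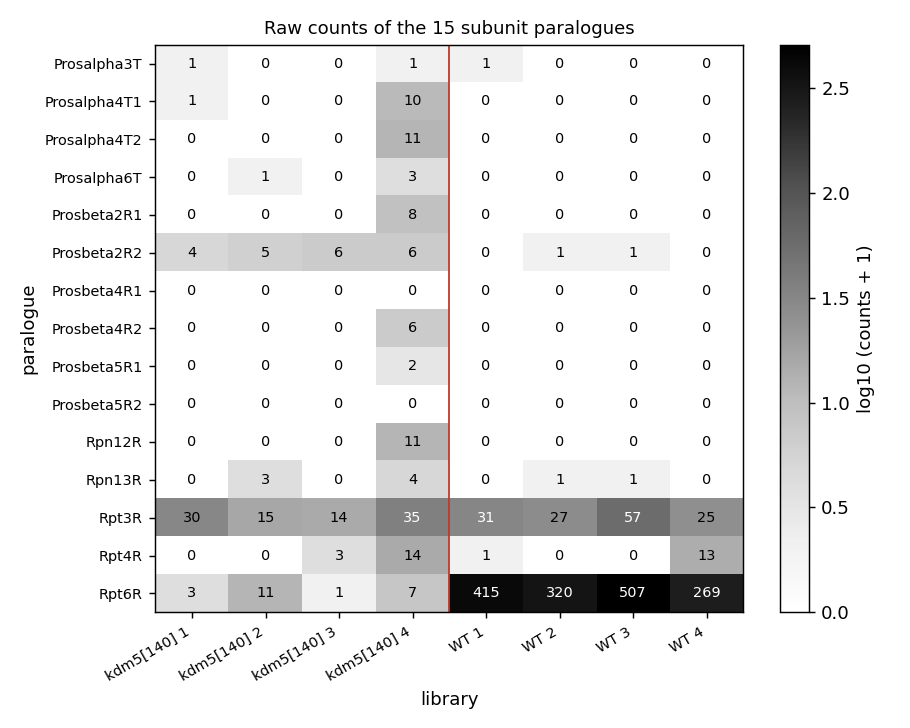
Raw counts of the 15 subunit paralogues in each library (kdm5[140] left of the line, WT right), shaded by log10 of the count plus 1. Rpt6R is at 1 to 11 counts in kdm5[140] and 269 to 507 in WT, and the testis-type paralogues appear mostly in replicate 4 labelled kdm5[140].

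Other genes of the pathway were taken from a list of 22 partners of the proteasome, all of which passed the filter. Of these, 2 were lower and 1 was higher at an FDR under 0.01, counts that are near or under the background of 9.62% lower and 7.91% higher. Of the 22, 16 log2 fold changes were negative, and the median was −0.10. Uch, a ubiquitin C-terminal hydrolase, had 125, 138, 153 and 138 CPM in the libraries labelled kdm5[140], against 197, 199, 207 and 195 CPM in WT, with no overlap (log2 fold change −0.52 ± 0.07 SE, edgeR FDR = 0.000459). The fall in Uch passed in all 8 fits that left out 1 library. p47, a cofactor of the segregase TER94, was lower at 138 ± 10.03 CPM, against 178 ± 10.3 CPM in WT (SD, n = 4 each, log2 fold change −0.36, edgeR FDR = 0.00385). This call was made in 2 of those 8 fits.

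The transcription factor cnc, the fly counterpart of mammalian Nrf proteins, works with maf-S and is restrained by Keap1. maf-S was higher, with 39.6, 38.0, 42.3 and 37.4 CPM in the libraries labelled kdm5[140], against 30.2, 34.3, 31.8 and 28.7 CPM in WT (log2 fold change 0.33 ± 0.08 SE, edgeR FDR = 0.00846), a call made in 1 of the 8 fits that left out 1 library. cnc had 355 ± 27.9 CPM and 291 ± 63.1 CPM (log2 fold change 0.29, edgeR FDR = 0.142), and Keap1 24.5 ± 2.25 CPM and 19.8 ± 2.32 CPM (log2 fold change 0.31, edgeR FDR = 0.0492) (SD, n = 4 each), and neither passed the threshold.

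Genes for assembly and activation of the 20S particle did not pass it either. Pomp, the maturation chaperone, lay at 184 ± 24.3 CPM in the libraries labelled kdm5[140] and 183 ± 7.79 CPM in WT, and PI31, a 20S-binding regulator, at 87.7 ± 2.70 CPM and 88.7 ± 2.10 CPM (SD, n = 4 each). The activator gene REG had 127 ± 12.4 CPM and 154 ± 7.86 CPM (log2 fold change −0.28, edgeR FDR = 0.0224). Sem1, a small lid subunit that the symbol rule did not take, had 104 CPM in the libraries labelled kdm5[140] and 127 CPM in WT on average (log2 fold change −0.29, edgeR FDR = 0.0225), and its log2 fold change was −0.06 with the length offset (edgeR FDR = 0.373). Upstream, the ubiquitin-activating enzyme Uba1 averaged 756 CPM in the libraries labelled kdm5[140] and 860.2 CPM in WT (log2 fold change −0.19, edgeR FDR = 0.0558). TER94 averaged 1254 and 1406 CPM in these groups (log2 fold change −0.17, edgeR FDR = 0.0916).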

How the data were processed

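RNA was measured in 8 libraries. Per the labels and the submitters' processing notes, the authors used HISAT2 2.0.5, StringTie 1.3.3b, featureCounts 1.5.0-p3 and DESeq2 1.20.0 with the dm6 build, and deposited raw whole-number counts for each gene. The authors also deposited FPKM values, a mean signal per genotype (counts divided by DESeq2 size factors), and the log2 fold changes and p-values of their DESeq2 comparison, none of which was used. How multiply mapped reads and strand were treated is not given in the sources used here. Fold changes were fitted over the whole table with edgeR 4.0.16 (TMM, filterByExpr, robust quasi-likelihood test, Benjamini-Hochberg) in R 4.3.3, with no covariate, at an FDR under 0.01. Standard errors come from the F statistic. DESeq2 1.42.0, limma 3.58.1 (voom), other scalings and filters, a replicate block, a gene length offset and fits without 1 library each were alternatives. The main edgeR fit, DESeq2, limma voom, the length offset and the replicate block were tested on simulated data. The other alternatives were not. The simulated counts held no length trend and no replicate effect, so they could not test what the length offset or the block corrects for. Python 3.11.15, pandas 2.3.3 and scipy 1.17.1 were used for the rest.

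All 47 members had the same coordinates in the Ensembl annotation used for overlaps and distances. The members, the lists and the tests were chosen with earlier results of these data known. Per-library values are given for each member with an FDR under 0.01, the highest and lowest fold change of each sub-complex, and each paralogue that passed the filter. Partner genes with an FDR under 0.01 are named, with 7 others named whatever their value. Prosalpha1R, Sem1, phr, CG18853, the neighbours of Rpt6R and the other partners or members with values were chosen after values were seen. No 2 libraries of a genotype agreed within sampling noise (chi-square per degree of freedom 11.19 to 62.25). Labels do not say whether libraries came from separate crosses, so p-values measure the spread between these samples, which may be technical. Intervals and floors cover counting error only. Promoter and protein sequences were not analysed here.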

Additional observations from a re-analysis of the deposited data

Results flagged for a closer look

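Groups of 4 libraries were taken for each member in each genotype where at least 1 library had more than 3 counts, 77 in all. In 11 of them, 1 library was far from the other 3 by Dixon's test at its 1 in 20 level. The groups share libraries and some hold few counts, so 11 of 77 cannot be read against that rate. Replicate 3 labelled kdm5[140] stood above the others of its genotype for Prosbeta1 (304 CPM, the others 263 to 269), Rpn7 (341 CPM, the others 284 to 293), Rpn9 (239 CPM, the others 200.2 to 203) and Rpn13 (292 CPM, the others 244 to 248). For Rpn13, WT replicate 4 also stood apart, below the other 3 WT libraries (289 CPM, the others 302 each after rounding). Replicate 4 labelled kdm5[140] stood above the others of its genotype for Prosalpha4T1 (0.498 CPM), Prosalpha4T2 (0.548 CPM), Prosbeta2R1 (0.398 CPM), Prosbeta4R2 (0.299 CPM) and Rpn12R (0.548 CPM), with 6 to 11 counts each where the other 3 had 0 or 1. WT replicate 4 stood above the other WT libraries for Rpt4R (0.684 CPM, from 13 counts).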

How the results depend on the processing

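No called result changed sign under any alternative run, and no member was called higher in any fit. The count of members called lower was 6 with edgeR, beside 9.62% of all tested genes. It became 13 with DESeq2 (all 6 among them), 15 at an FDR under 0.05, and ranged from 3 to 15 when 1 library was left out. It was 3 without replicate 1, 2 or 4 labelled kdm5[140] or WT replicate 2 or 3, 4 without WT replicate 4, 8 without WT replicate 1 and 15 without replicate 3 labelled kdm5[140]. Scaling by library size alone gave 4, beside 6.62% of all genes called lower. It moved the median of all genes to 0.12, beside 0.02 with TMM, and the share of calls that were lower to 36.1%, beside 54.9%. The core median was then −0.11, and it lay 0.23 under that of all genes, beside 0.22 with TMM. With that scaling the median was −0.04 for the alpha ring, −0.11 for the beta ring, −0.12 for the ATPases, −0.12 for the other base subunits and −0.10 for the lid, and 27 core log2 fold changes were negative and 5 positive, beside 30 and 2. In the other fits the positive ones numbered 1 to 4. Among results not called, Rpn1 (−0.03) was at 0.07 with library size alone, 0.01 with a filter at a mean of 5 CPM and 0.00 without replicate 2 labelled kdm5[140], and Rpn7 (0.00) ranged from −0.06 to 0.10. Core medians without 1 library ranged from −0.26 to −0.18.

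A gene length offset gave 9 members called lower, beside 1021 of 9317 genes tested, where the main fit called 896 genes lower. The core median was then −0.16, with −0.02 for the alpha ring, −0.10 for the beta ring and −0.17 for each of the ATPases, the other base subunits and the lid, beside 0.02 for all genes. Sem1 was at −0.06, beside −0.29. Whether replicate numbers shared between genotypes pair the libraries could not be settled, and labels do not say what a number shares. Correlations of deviations between same-numbered libraries were 0.073, 0.116, 0.189 and −0.117, and 2 of 4 correlated best with their own number. A replicate block gave 9, adding Prosalpha3, Prosbeta7 and Rpt2, beside 9.72% of all genes. With the length offset as well it gave 7, beside 9.16%. Partner genes called lower were 2 with edgeR, 4 with DESeq2, 4 at an FDR under 0.05, 1 with library size alone and 1 to 3 without 1 library. Partner genes called higher were 1 with edgeR, 0 without a filter, 0 with the replicate block, 2 at an FDR under 0.05 and 0 to 1 without 1 library. Of all genes, edgeR called 7.91% higher, and 14.4% at an FDR under 0.05. The cause of these changes was not tested. The edgeR filter left 13 paralogues untested. Without a filter edgeR tested 11 of them and DESeq2 gave an adjusted p for 2, and none was called.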
